A study of Mus musculus with 27 samples.

Results

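The liver genes of the growth hormone and STAT5 pathway described here are Ghr, Stat5a, Stat5b, Cish, Socs1, Socs2, Socs3, Igf1, Igfals and Bcl6, 10 of the 23191 gene symbols in the count table. They were selected on their known place in growth hormone signalling when earlier results of these mice were already known, and no particular contrast was recorded as the reason for the choice. Each of the 10 symbols had a single row. All 10 passed the filter on low counts in every comparison. The p-values given below come from fits across all genes, and because of how the genes were chosen they are not independent support for a pattern.

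RNA-Seq was performed on liver of 27 male C57BL/6J mice, which were whole-body HGFAC-KO mice or littermate controls and ate chow or, as the HF/HS groups, a diet rich in fat and sucrose for 4 weeks from 8 weeks of age. HGFAC is a secreted liver protease that activates hepatocyte growth factor, and the KO allele is missing exon 2 and a piece of exon 1 of Hgfac in every tissue. The chow groups held 7 controls and 6 HGFAC-KO mice, and the HF/HS groups held 7 mice of each genotype. The sources used here did not give the time of day or the feeding state for the livers sequenced. Liver triglycerides in mice of these genotypes and diets were measured after an overnight fast and a few hours of refeeding, and whether the RNA came from the same livers was not stated.

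Growth hormone binds its receptor GHR on hepatocytes and activates the kinase JAK2, which phosphorylates the transcription factors STAT5A and STAT5B. STAT5 then switches on Igf1 and Igfals, whose products carry the growth signal in blood, and the feedback inhibitors Cish, Socs2 and Socs3, and it lowers the repressor Bcl6. In male mice the hormone is released in pulses with quiet intervals, so hepatic STAT5 activity and the mRNAs of its fast targets rise and fall within hours and differ between animals taken at different moments.

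STAT5 and its relatives bind the palindrome TTCNNNGAA, which reads the same on both strands. RefSeq (GRCm38.p6) promoter windows, each running from 250 bases before to 50 bases after an annotated start, were matched by symbol for 9 of the 10 genes (15 windows), while Socs2 was not matched. The motif was found in 6 of these windows, belonging to 4 genes (Cish, Socs3, Igfals and Bcl6), while 8.3% of all 32851 windows held it and 0.457% held it more than once. The stretches below are shown because Cish, Socs3 and Bcl6 were among the genes that differed most between mice, and Igfals is given beside them as a gene of the same pathway that differed little. They read 5′ to 3′ on the strand of the gene, with each motif in capitals. The 30 bases of Cish (chr9:107296654-107296683, plus strand) start 5 bases before the RefSeq start and lie in a GENCODE exon of the gene. The 250 bases of Socs3 (chr11:117969367-117969616, minus strand), of the second Igfals window (chr17:24877981-24878230, plus strand) and of the second Bcl6 window (chr16:23981284-23981533, minus strand) end just before a RefSeq start and lie inside the gene but outside its GENCODE exons. The 250 bases of the first Bcl6 window (chr16:23988853-23989102, minus strand) lie outside the gene, directly upstream.
Cish: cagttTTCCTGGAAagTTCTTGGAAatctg
Socs3: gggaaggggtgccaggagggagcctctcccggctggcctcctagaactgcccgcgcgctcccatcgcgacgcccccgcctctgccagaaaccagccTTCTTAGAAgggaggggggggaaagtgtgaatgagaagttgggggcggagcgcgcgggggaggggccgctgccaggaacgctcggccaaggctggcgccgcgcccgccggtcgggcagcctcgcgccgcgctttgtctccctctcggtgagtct
Igfals, second window: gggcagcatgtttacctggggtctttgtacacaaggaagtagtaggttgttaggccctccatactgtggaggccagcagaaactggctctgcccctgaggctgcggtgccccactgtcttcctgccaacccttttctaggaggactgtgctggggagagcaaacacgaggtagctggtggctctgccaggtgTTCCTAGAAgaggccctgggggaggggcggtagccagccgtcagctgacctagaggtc
Bcl6, first window: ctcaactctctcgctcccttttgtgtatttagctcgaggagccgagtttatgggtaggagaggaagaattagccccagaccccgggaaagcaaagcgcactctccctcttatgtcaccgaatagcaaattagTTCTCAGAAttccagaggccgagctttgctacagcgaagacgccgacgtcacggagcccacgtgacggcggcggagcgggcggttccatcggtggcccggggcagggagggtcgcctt
Bcl6, second window: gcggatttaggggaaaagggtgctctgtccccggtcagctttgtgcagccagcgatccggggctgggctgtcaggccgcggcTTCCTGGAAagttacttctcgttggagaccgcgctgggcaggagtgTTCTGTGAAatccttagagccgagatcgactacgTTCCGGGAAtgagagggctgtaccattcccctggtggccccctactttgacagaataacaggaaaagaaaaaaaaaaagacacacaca
The 2 motifs of Cish began at bases 1 and 12 of the transcript. The second Bcl6 window held 3 motifs, at bases -168, -122 and -88 from the start, and 11 of all windows held that many. A match of these letters is a description of the sequence and was not tested as a binding site.

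Total counts per mouse ran from 36056177 to 57298657 with a median of 47239271. Levels are given as CPM, the counts of a gene relative to all named counts of its library after scaling by the trimmed mean of M-values (TMM). Hgfac, the targeted gene, was at 182.7 to 220.0 CPM in controls and at 65.6 to 84.7 CPM in HGFAC-KO mice on chow. On HF/HS diet it was at 246.6 to 292.9 and at 81.6 to 100.6 CPM, so the genotype labels held in all 27 mice. The summed level of 6 hepatocyte markers ran from 76234 to 114530 CPM, against 8.07 to 26.3 CPM for 13 leukocyte markers. Members differed in depth of measurement: Socs1 rested on 17 to 57 counts per mouse and Cish on 51 to 2161, whereas Ghr had at least 12722 and Igf1 at least 13142.

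Per kilobase of exon, the group medians of the 10 genes spread over a wide range. Ghr was highest in each group, at 79.5 to 99.1 CPM per kilobase over the 4 groups, followed by Igfals (50.1 to 57.9) and Igf1 (43.9 to 48.0). Bcl6 (20.4 to 25.2), Stat5b (9.05 to 10.8) and Stat5a (4.06 to 4.90) were intermediate. The feedback inhibitors were mostly lower, with Socs3 at 2.55 to 6.09, Socs2 at 1.87 to 2.1, Cish at 0.572 to 0.873 and Socs1 at 0.211 to 0.315 CPM per kilobase. Socs3 exceeded Stat5a in controls on HF/HS diet (6.09 against 4.06), and in the other groups it lay below. These lengths come from GENCODE (GRCm38), which may not be the annotation used for counting. In it, exons of Cish (chr9:107296026-107302784, plus strand), Igf1 (chr10:87858265-87937042, plus strand), Bcl6 (chr16:23965052-23988852, minus strand) and Stat5a (chr11:100859351-100885169, plus strand) overlap a gene on the opposite strand. Since the strand setting of the counting was not stated, their levels may include reads of that gene.

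**Figure D1:**
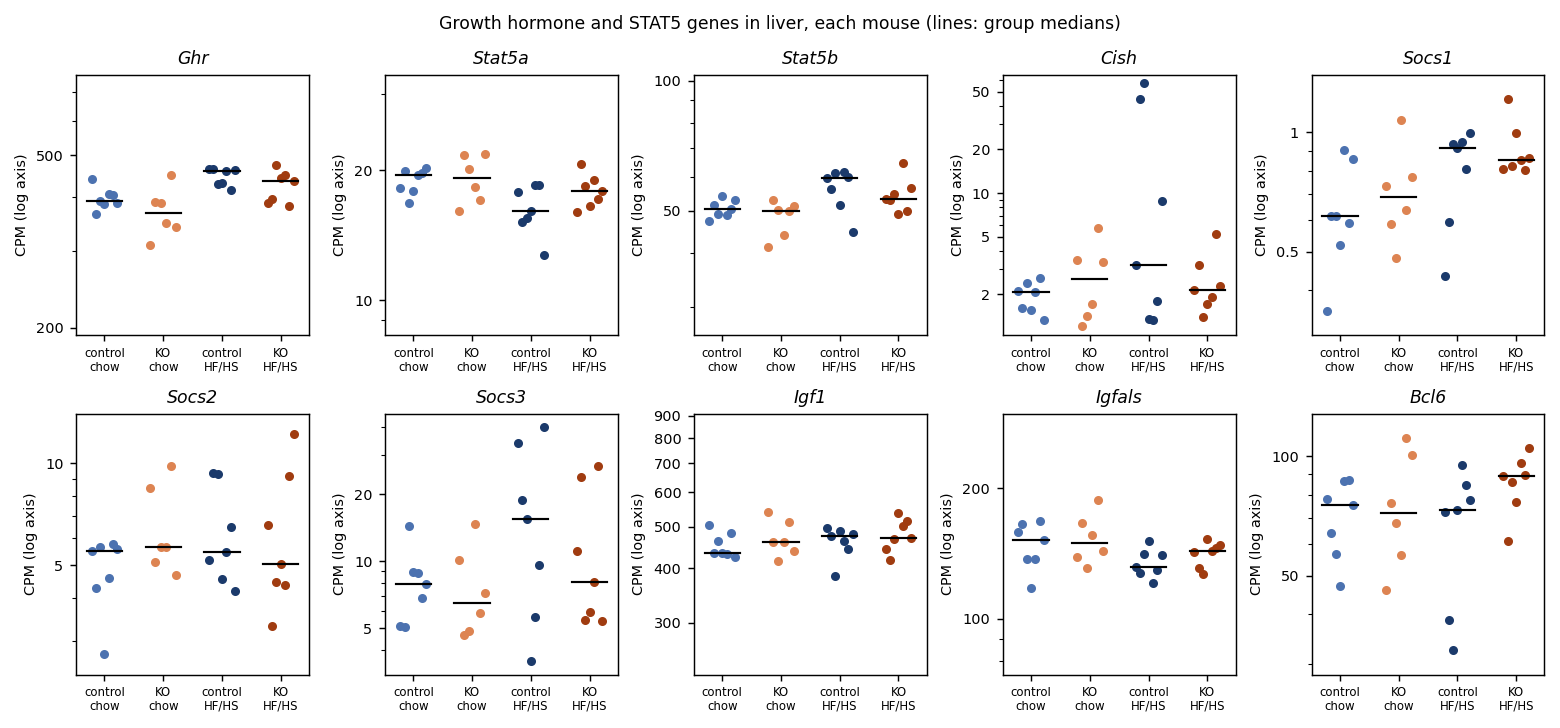
Level of each of the 10 genes in every mouse, in CPM on a log axis that differs between panels, for the 4 groups of genotype and diet (7 or 6 mice each; horizontal lines are group medians). Cish reached 44.3 and 57.2 CPM in 2 controls on HF/HS diet and stayed at or below 8.82 CPM in all other mice, while Igf1 and Ghr varied little within groups.

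The receptor gene Ghr was higher on HF/HS diet in controls, by a small amount. In controls on chow it ran from 365.5 to 440.9 CPM with a median of 391.4, and on HF/HS diet from 415.9 to 465.5 CPM with a median of 459.5. The diet groups of the controls overlapped, and 4 of the 7 mice on HF/HS diet lay above every control on chow. Ghr rose 1.13-fold (log2 fold change 0.17 ± 0.048 SE, adjusted p = 0.0299 by the quasi-likelihood test of edgeR, Benjamini-Hochberg adjusted over all genes, two-sided exact permutation p = 0.00350 over 3432 splits). This call was close to the threshold: it was lost when any of 7 single mice was left out (control chow replicates 2, 4, 6 and 7 and control HF/HS replicates 1, 2 and 5), with adjusted p between 0.0144 and 0.0667 over all 14 single exclusions. In HGFAC-KO mice Ghr ran from 310.4 to 451.3 CPM on chow (median 368.6) and from 381.3 to 475.3 CPM on HF/HS diet (median 435.0). The difference there was of like size, at 0.20 ± 0.083 (SE), but did not pass the threshold (adjusted p = 0.170), and the interaction of genotype and diet was 0.02 ± 0.094 (SE, adjusted p = 0.990). In bulk liver, a change in the share of hepatocytes and a change in RNA per cell cannot be told apart.

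Stat5a and Stat5b, paralogs that lie side by side on chromosome 11, encode the transcription factors that relay the signal. Stat5a ran from 16.8 to 20.3 CPM in controls on chow and from 12.7 to 18.4 CPM in controls on HF/HS diet, where 4 of 7 mice lay below every control on chow. The log2 difference was -0.21 ± 0.078 (SE, exact permutation p = 0.0169) and did not pass the threshold after adjustment. Stat5b showed the opposite sign: it ran from 47.4 to 54.0 CPM on chow and from 44.8 to 61.4 CPM on HF/HS diet in controls, with 5 of 7 mice above every control on chow. Its log2 difference was 0.16 ± 0.065 (SE, adjusted p = 0.139), and leaving out control HF/HS replicate 7, which had the lowest Stat5a and Stat5b of its group, took the adjusted p to 0.0150, within a range of 0.0150 to 0.237 over the single exclusions. In HGFAC-KO mice Stat5b lay between 41.4 and 53.1 CPM on chow and between 49.3 and 64.5 CPM on HF/HS diet, where 5 of 7 mice were above every mouse on chow, a log2 difference of 0.18 ± 0.071 (SE, adjusted p = 0.148). Stat5a in HGFAC-KO mice differed by -0.09 ± 0.082 (SE, adjusted p = 0.562) between diets. Reads shared between the 2 paralogs, or between Stat5a and the 3′ end of Stat3 on the opposite strand, may have been divided in a way that the sources do not state.

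Cish encodes CIS, an SH2-domain inhibitor that is switched on by STAT5 and docks on the activated receptor. In controls on chow it was low and even, with a lowest value of 1.33, a median of 2.09 and a highest value of 2.58 CPM. In controls on HF/HS diet the lowest value was 1.33, the median 3.18 and the highest 57.2 CPM. Replicates 2 and 3 of that group stood apart at 44.3 and 57.2 CPM, replicate 7 had 8.82 CPM, and the other 4 mice lay between 1.33 and 3.18 CPM. HGFAC-KO mice lay between 1.2 and 5.73 CPM on chow (median 2.53) and between 1.39 and 5.21 CPM on HF/HS diet (median 2.13), and none of them reached 8.82 CPM.

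Cish was the only one of the 10 genes besides Ghr that passed the threshold in any comparison. In controls it was 8.64-fold higher on HF/HS diet (log2 fold change 3.11 ± 0.916 SE, 95% interval 1.13 to 5.09; edgeR adjusted p = 0.0476), with 4 of 7 mice above and 1 below every control on chow. This difference rested on 2 mice. Without control HF/HS replicates 2 and 3, an exclusion chosen after the values were seen, the log2 difference was 0.77 ± 0.434 (SE) with an adjusted p of 0.320. On log2 CPM, where 2 high mice weigh less, the exact permutation p was 0.121. The call was also lost in 10 of 14 single exclusions (any of the 7 controls on chow, and control HF/HS replicates 2, 3 and 7, adjusted p 0.0273 to 0.0935), and under limma voom the difference was 1.63 ± 0.921 (SE, adjusted p = 0.287, with adjusted p from 0.00175 to 0.320 over the alternatives that left no single mouse out). In HGFAC-KO mice Cish did not differ detectably between diets (-0.15 ± 0.382 SE, 95% interval -0.97 to 0.67, adjusted p = 0.860).

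On HF/HS diet Cish was 6.60-fold lower in HGFAC-KO mice than in controls (log2 difference -2.72 ± 0.908 SE, unadjusted p = 0.0102, adjusted p = 0.442, exact permutation p = 0.196). No HGFAC-KO mouse lay below the lowest control, and without control HF/HS replicates 2 and 3 the difference was -0.38 ± 0.493 (SE, adjusted p = 0.933, in a range of 0.0939 to 0.933 over the alternatives that left no single mouse out). On chow the difference had the other sign, 0.53 ± 0.321 (SE, adjusted p = 0.820). The interaction of genotype and diet was -3.25 ± 1.02 (SE, unadjusted p = 0.00392, adjusted p = 0.984) and fell to -0.92 ± 0.608 (SE) without the same 2 mice.

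Socs2 encodes an inhibitor that targets the growth hormone receptor for degradation. On chow it lay between 2.74 and 5.77 CPM in controls and between 4.69 and 9.80 CPM in HGFAC-KO mice, where 2 of 6 mice lay above every control. The log2 difference was 0.43 ± 0.197 (SE, unadjusted p = 0.0458, adjusted p = 0.801, exact permutation p = 0.111). On HF/HS diet the controls spanned 4.20 to 9.38 CPM and the HGFAC-KO mice 3.31 to 12.1 CPM, with a difference of 0.01 ± 0.282 (SE, adjusted p = 0.995). The 2 controls with the highest Cish also had the highest Socs2 of their group, 9.38 and 9.31 CPM, whereas the highest Socs2 of all mice, 12.1 CPM in KO HF/HS replicate 7, came with 2.29 CPM of Cish.

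Socs3 and Socs1 encode inhibitors of JAK kinases that also answer to cytokines. Socs3 had a median of 7.86 CPM in controls on chow (5.06 to 14.4) and 15.5 CPM in controls on HF/HS diet (3.55 to 40.1), so the HF/HS group spanned the whole range of the chow group. The log2 difference of 1.16 ± 0.478 (SE) did not pass the threshold (adjusted p = 0.145, exact permutation p = 0.154). In HGFAC-KO mice Socs3 had a median of 6.51 CPM on chow (4.64 to 14.7) and 8.09 CPM on HF/HS diet (5.38 to 26.8), a difference of 0.66 ± 0.462 (SE, adjusted p = 0.434). Socs1 was the lowest of the 10 genes, at 0.355 to 1.08 CPM on chow and 0.434 to 1.22 CPM on HF/HS diet over both genotypes. It did not differ detectably at this depth in any comparison (log2 differences 0.16 to 0.36 in the 4 pairwise comparisons, adjusted p from 0.281 to 0.894).

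The levels of Saa1 were set beside those of Socs3 after the values were seen. The 2 mice with the highest Saa1, an acute-phase gene that answers to interleukin-6 and STAT3, were KO chow replicate 4 (1289.5 CPM) and control HF/HS replicate 7 (1226.9 CPM), and each had the highest Socs3 of its group, 14.7 and 40.1 CPM. Control chow replicate 3, with the highest Saa1 of its group (245.8 CPM), had the highest Socs3 there too, 14.4 CPM. In HGFAC-KO mice on HF/HS diet the highest Saa1 (181.3 CPM, replicate 2) came with 23.8 CPM of Socs3, and the highest Socs3 (26.8 CPM, replicate 6) with 27.02 CPM of Saa1. Control HF/HS replicates 2 and 3, the 2 mice highest in Cish, had 16.3 and 26.5 CPM of Saa1. Whether an acute-phase response had a part in the levels of Socs3 was not tested.

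Igf1 and Igfals, the circulating growth factor and the protein that holds it in blood, did not differ detectably in any comparison. Igf1 ran from 424.9 to 503.4 CPM in controls on chow, from 415.4 to 538.8 in HGFAC-KO mice on chow, from 384.6 to 495.9 in controls on HF/HS diet and from 418.9 to 537.0 in HGFAC-KO mice on HF/HS diet. All 4 groups overlapped. Its log2 differences lay between 0.03 and 0.06 in the 4 pairwise comparisons, and the widest 95% interval reached from -0.13 to 0.19 (diet in HGFAC-KO mice, adjusted p = 0.855). Igfals ran from 117.5 to 188.1 CPM on chow and from 120.6 to 152.6 CPM on HF/HS diet over both genotypes. Its differences with diet were -0.13 ± 0.075 (SE, adjusted p = 0.279) in controls and -0.12 ± 0.077 (SE, adjusted p = 0.405) in HGFAC-KO mice.

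Bcl6 encodes a transcriptional repressor that opposes STAT5 at shared sites in male liver. Its levels were 47.1 to 87.3 CPM in controls on chow (median 75.2), 46.0 to 111.2 in HGFAC-KO mice on chow (median 72.1), 32.4 to 95.2 in controls on HF/HS diet (median 73.1) and 61.2 to 104.8 in HGFAC-KO mice on HF/HS diet (median 88.9). The 2 controls on HF/HS diet with the highest Cish had the lowest Bcl6 of all 27 mice, 38.5 and 32.4 CPM. Bcl6 was 0.34 ± 0.215 (SE) higher on the log2 scale in HGFAC-KO mice than in controls on HF/HS diet (adjusted p = 0.628, exact permutation p = 0.121), and 0.09 higher without those 2 mice. The other pairwise comparisons of Bcl6 gave differences between -0.06 and 0.18 with adjusted p from 0.605 to 0.920.

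**Figure D2:**
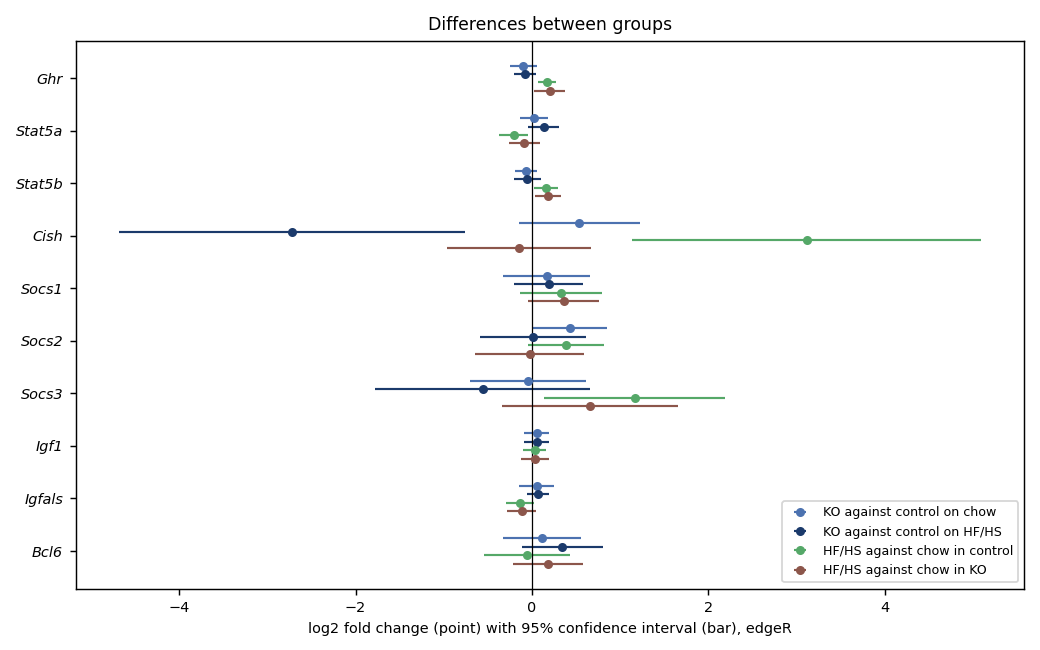
Log2 fold change of each gene (points) with its 95% confidence interval (bars) in the 4 pairwise comparisons, from edgeR fits across all genes. The widest intervals are those of Cish on HF/HS diet (1.13 to 5.09 for diet in controls), and those of Igf1 all include 0.

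Across the comparisons, 2 of the 10 genes passed the threshold in one and none in the others. Between genotypes on chow none of the 10 passed the threshold by edgeR, DESeq2 or limma voom. There edgeR called 0.00737% of 13571 genes (1 gene, Hgfac), DESeq2 13 genes and limma voom 1. At an unadjusted p under 0.05 stood 1 of the 10 and 5.98% of all genes. Between genotypes on HF/HS diet none of the 10 passed by any of the 3 tools. There edgeR called 0.0148% of 13544 genes, DESeq2 55 genes and limma voom 2. An unadjusted p under 0.05 was found for 1 of the 10, beside 9.64% of all genes. With diet in controls 2 of the 10 passed, both higher on HF/HS diet, against 10.5% of 13525 genes, and 5 had an unadjusted p under 0.05, against 25.4% of all genes. With diet in HGFAC-KO mice none of the 10 passed by any of the 3 tools. There edgeR called 5.89% of 13613 genes, DESeq2 1401 genes and limma voom 797. In edgeR 2 of the 10 had an unadjusted p under 0.05, against 22.4% of all genes. For the interaction 0% of 13932 genes passed by edgeR, DESeq2 or limma voom, with 506 genes (3.63%) and 1 of the 10, Cish, at an unadjusted p under 0.05 in edgeR. The median log2 difference of the 10 genes was 0.05 and 0.03 between genotypes on chow and HF/HS diet and 0.16 and 0.10 between diets (controls, then HGFAC-KO mice), beside 0.00 for all genes in each. The comparisons share groups of mice and are given side by side only.

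The 10 genes separated by how much they varied between mice of a group. The pooled within-group standard deviation of log2 CPM was 1.30 for Cish and 0.92 for Socs3, above 99.8% and 99.3% of all genes tested. Socs2 (0.49), Bcl6 (0.44) and Socs1 (0.36) followed, at percentiles 90.9, 87.2 and 80.9, and the standard deviation expected from counting alone was 0.25 for Socs1 and 0.09 for Cish. Stat5a (0.15), Igfals (0.15), Stat5b (0.13), Igf1 (0.12) and Ghr (0.12) lay below the median of all genes, 0.18. The highest mouse exceeded the lowest 47.7-fold for Cish, 11.3-fold for Socs3, 4.42-fold for Socs2, 3.44-fold for Bcl6 and 1.40-fold for Igf1.

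The spread of Cish was not the same in each group. Its standard deviation of log2 CPM was 0.34 in controls on chow, 0.87 in HGFAC-KO mice on chow, 2.30 in controls on HF/HS diet and 0.62 in HGFAC-KO mice on HF/HS diet. Socs3 was widest in the HF/HS groups, 1.29 in controls and 0.99 in HGFAC-KO mice, against 0.52 and 0.65 on chow. For Bcl6 the order was 0.60 in controls and 0.25 in HGFAC-KO mice on HF/HS diet, with 0.33 and 0.49 on chow. These differences in spread were not tested.

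**Figure D3:**
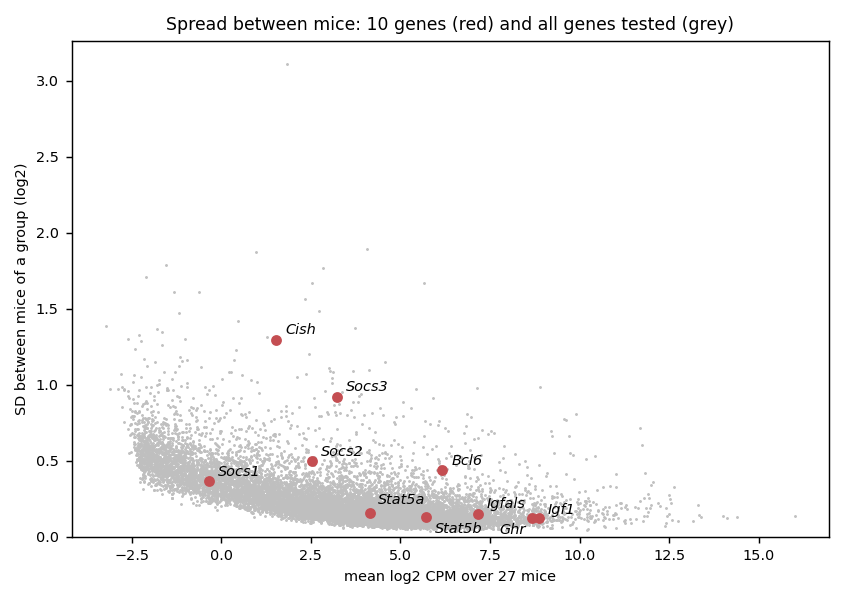
Pooled within-group standard deviation of log2 CPM (vertical axis) against mean log2 CPM over 27 mice (horizontal axis) for the 10 genes (red) and all genes tested (grey). Cish and Socs3 lie high above the grey band at their level, at 1.30 and 0.92, whereas Igf1 and Ghr lie at 0.12.

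To ask whether targets of one pathway deviated together in the same mouse, log2 CPM was centred on group means and each of the 45 pairs was correlated over 27 mice. None passed the threshold after adjustment over the 45 pairs, by Pearson or Spearman (two-sided permutation within groups). Stat5a and Stat5b came closest (Pearson r = 0.68, permutation p = 0.00124, adjusted p = 0.0558, Spearman rho = 0.55, permutation p = 0.00735, adjusted p = 0.330), with r = 0.52 after leaving out the 2 mice farthest in Stat5a. Without control HF/HS replicates 2 and 3 this pair passed (r = 0.73, permutation p = 0.00081, adjusted p = 0.0365). Within groups their r was 0.26 (controls) and 0.78 (HGFAC-KO) on chow and 0.82 (controls) and 0.44 (HGFAC-KO) on HF/HS diet.

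Pairs with Cish moved when control HF/HS replicates 2 and 3, the 2 mice farthest in Cish, were left out. Cish and Socs2 gave r = 0.48 (permutation p = 0.00775, adjusted p = 0.174, rho = 0.48, permutation p = 0.0218, adjusted p = 0.330) and r = 0.25 without those mice. Cish and Bcl6 gave r = -0.52 (permutation p = 0.0440, adjusted p = 0.391) but rho = -0.01 (permutation p = 0.963, adjusted p = 1.00), and r = 0.12 without them, so the negative relation rested on those 2 mice. Cish and Socs3 gave r = 0.48 (permutation p = 0.0834, adjusted p = 0.391, rho = 0.44, permutation p = 0.0367, adjusted p = 0.330) and r = 0.67 without them. Over all 45 pairs 18 correlations were positive and the median r was -0.02.

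**Figure D4:**
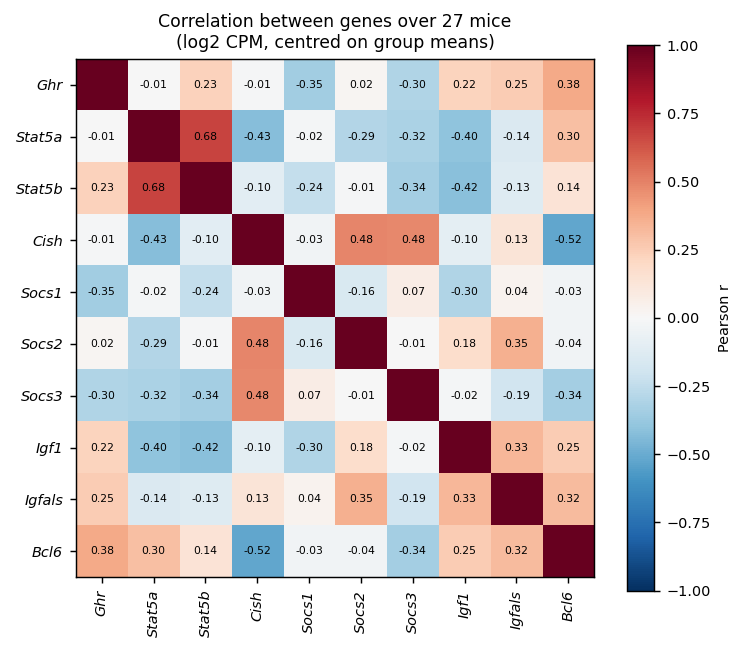
Pearson r of each pair of the 10 genes over 27 mice, on log2 CPM centred on group means (colour scale from -1 to 1, value in each cell). The strongest cells are Stat5a with Stat5b (0.68), Cish with Bcl6 (-0.52), and Cish with Socs2 and Socs3 (0.48 each), and none passed the threshold after adjustment.

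Across the 11795 other genes with a median of at least 1 CPM, the genes whose deviations were most like those of Cish over 27 mice were Myc (r = 0.88), Wsb1 (0.87), Gadd45g (0.84), Phlda1 (0.82), Arid5b (0.80), Onecut1 (0.76), Slc25a30 (0.75), Foxa2 (0.75), Ikzf4 (0.70) and Vmp1 (0.65). Myc encodes a growth-promoting transcription factor, Wsb1 a protein with a SOCS box like that of CIS, and Gadd45g a stress- and cytokine-induced growth regulator. These likenesses are descriptions over mice whose values share one scaling. Without control HF/HS replicates 2 and 3 each of these was lower. The r of Myc, Wsb1, Gadd45g, Arid5b and Onecut1 then lay between 0.60 and 0.79, with Onecut1 at rank 144, and that of Phlda1, Ikzf4 and Vmp1 between 0.38 and 0.49. Slc25a30 fell to 0.14 and Foxa2 to -0.09. Among the same genes Socs2 ranked 38 from the top and Socs3 ranked 41, and Bcl6 ranked 23 from the bottom. The lowest correlations were those of Epha2 (-0.72), 1500004A13Rik (-0.71), Ccn1 (-0.69), Glipr1 (-0.68) and Fut8 (-0.67), and without the same 2 mice these were -0.30, -0.50, -0.35, -0.59 and -0.65.

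Onecut1 encodes HNF6, a hepatocyte transcription factor whose gene is induced by growth hormone. It was at 39.6 and 41.8 CPM in control HF/HS replicates 2 and 3 and at 9.30 to 21.6 CPM in the other 5 mice of that group. In HGFAC-KO mice the highest Onecut1 also came with the highest Cish: 44.7 CPM in KO chow replicate 5 (Cish 5.73 CPM) and 39.8 CPM in KO HF/HS replicate 6 (Cish 5.21 CPM). KO chow replicate 5 differed from the 2 controls in its Bcl6, which was the highest of all mice at 111.2 CPM. Myc was at 15.3 and 7.64 CPM in control HF/HS replicates 2 and 3 and at most 5.90 CPM in any other mouse.

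**Figure D5:**
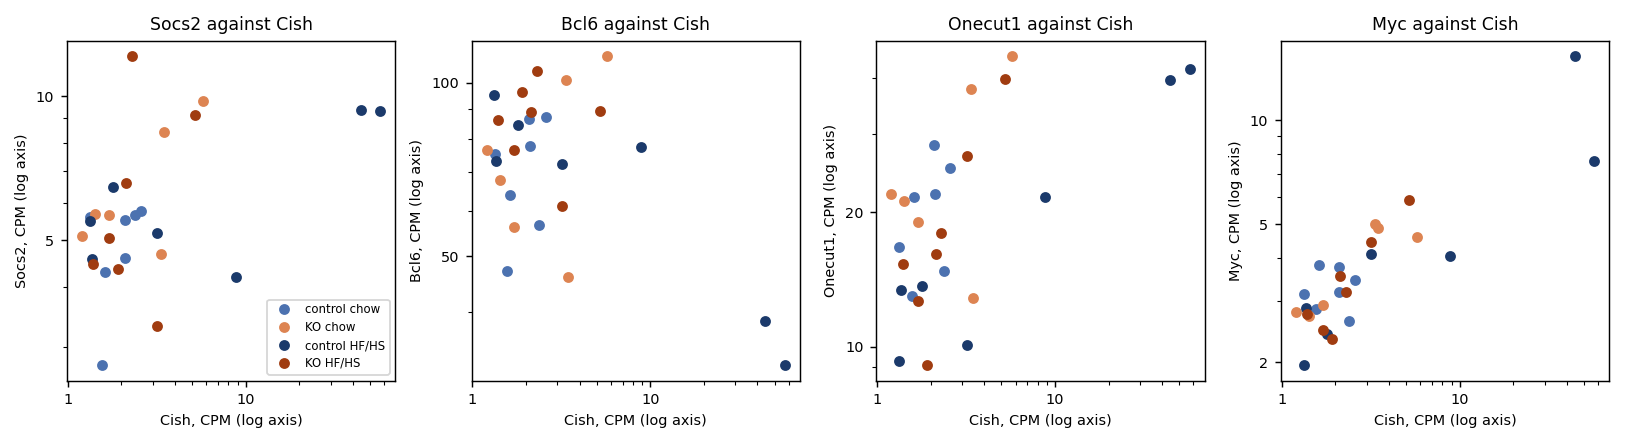
Socs2, Bcl6, Onecut1 and Myc (vertical axes) against Cish (horizontal axes) in each of 27 mice, in CPM on log axes, coloured by group. The 2 controls on HF/HS diet at the right (Cish 44.3 and 57.2 CPM) have low Bcl6 (38.5 and 32.4 CPM), and Myc rises with Cish also among the other mice.

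For the other members the closest genes were taken in the same way. Socs3 varied most like Fosl2 (r = 0.91), B4galt1 (0.86) and Cbfb (0.85), and these values changed by little without control HF/HS replicates 2 and 3 (0.93, 0.86 and 0.85). Stat5b varied most like Mcc (0.84), Ocln (0.82) and Fbxo8 (0.81), and Stat5a most like Il22ra1 (0.76), a receptor chain for interleukin-22, and Xpc (0.74). Ghr varied most like Aox3 (0.77), Aldh6a1 (0.76) and Stard4 (0.75), and Bcl6 most like Pcdh1 (0.79), Prok1 (0.78) and Rgp1 (0.76). The order for Bcl6 depended on control HF/HS replicates 2 and 3, its lowest mice. Without them Pcdh1 was at 0.67 (rank 87), Prok1 at 0.76 (rank 16) and Rgp1 at 0.73 (rank 29). For Socs2 the closest were Wdr13 (0.75), Pgp (0.69) and Fam98c (0.68), for Igfals Ppp2r1a (0.71), Gpn1 (0.68) and Ssu72 (0.68), for Igf1 A630076J17Rik (0.65), 4933421O10Rik (0.64) and Taf12 (0.62), and for Socs1 Uckl1os (0.58), Mup15 (0.55) and Rnf113a2 (0.52).

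Of 29 other genes of growth hormone and JAK-STAT signalling, none passed the threshold between genotypes on either diet by edgeR, with an unadjusted p under 0.05 for 2 of them on chow, where 5.98% of all genes had one, and for 4 on HF/HS diet, where 9.64% had one. With diet in controls 2 of the 29 passed, both as higher, where 10.5% of all genes were called. Among them was Pik3r1 (log2 fold change 0.32 ± 0.0819 SE), which encodes a subunit of phosphoinositide 3-kinase. In the same comparison of HGFAC-KO mice 3 of the 29 passed, all as higher, where 5.89% of all genes were called. Among them were Stat2 (0.32 ± 0.0617 SE) and the interleukin-6 signal transducer Il6st (0.40 ± 0.10 SE). No gene of this list passed as lower with diet in either genotype, while 757 of 13525 genes did in controls and 371 of 13613 in HGFAC-KO mice. Prlr, the prolactin receptor gene, differed by -0.38 ± 0.125 SE with diet in controls and did not pass (adjusted p = 0.0651). Of 11 tested genes of the IGF axis, Igfbp7 alone passed in any comparison (0.25 ± 0.0751 SE with diet in controls, adjusted p = 0.0457), 1 of 11 where 10.5% of all genes were called.

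Some genes known for a male or female bias that depends on the growth hormone pattern passed the threshold with diet, in both directions, and the lists were not tested as groups. In controls 8 of 20 male-biased genes were higher on HF/HS diet and 4 were lower, where 10.5% of all genes were called. They included the steroid dehydrogenase gene Hsd3b5 (1.34 ± 0.140 SE), Nudt7 (0.71 ± 0.111 SE) and the fatty acid hydroxylase gene Cyp4a12a (-0.62 ± 0.104 SE). In HGFAC-KO mice, where 5.89% of all genes were called, 4 of 20 were higher and 2 lower, among them Hsd3b5 (1.21 ± 0.232 SE) and Cyp4a12a (-0.76 ± 0.133 SE). Of 15 female-biased genes tested in controls, Ntrk2 was higher (1.46 ± 0.429 SE) and 5 were lower, namely Cyp3a41a, Cyp3a16, Cyp3a44 and Cyp3a41b, paralogs whose reads can be shared, and Fmo2 (-0.67 ± 0.152 SE). In HGFAC-KO mice 5 of 16 were lower, beside the same 5.89% of all genes, again those Cyp3a genes and Cyp2a4. Cyp3a41a, Cyp3a16, Cyp3a41b and Cyp2a4 did not pass the filter on low counts when the HF/HS groups were compared. They entered the diet comparisons through their levels on chow and could hardly have been called as higher. The counts of lower female-biased genes are therefore not a result to set against the shares of all genes. Between genotypes no gene of either list passed by edgeR, with an unadjusted p under 0.05 for 4 of 20 male-biased and 6 of 16 female-biased genes on chow (5.98% of all genes) and for 4 of 20 and 2 of 12 on HF/HS diet (9.64% of all genes). The female-biased Cyp2b9 and Cyp2b13 stayed at or below 1.2 CPM in all mice.

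Members of other lists were also called in the comparison of diets in controls in which Cish and Ghr passed, where 10.5% of all genes were called, and the shares of the feeding, clock and acute-phase lists were near or below that. Of 15 circadian clock genes 2 were higher, Nr1d1 (0.77 ± 0.204 SE) and Dbp (1.47 ± 0.387 SE). Of 10 fasting-response genes Cpt1a and Angptl4 were higher and Pdk4 and Tat lower, and of 9 feeding-response genes Pklr was higher. Of 21 acute-phase and STAT3 genes Fgb was higher (0.40 ± 0.122 SE). Of 11 leukocyte markers tested 2 were higher, Cd4 and S100a8, with a summed level of 8.83 to 15.5 CPM on chow and 12.3 to 26.3 CPM on HF/HS diet. Among the Kupffer cell, sinusoidal endothelial, stellate cell and cholangiocyte markers Lrat alone passed (-0.60 ± 0.160 SE), and of 6 hepatocyte markers Apoa1 was higher and Ass1 and Tat were lower. In HGFAC-KO mice, where 5.89% of all genes were called with diet, 4 of 8 Kupffer cell markers (Cd68, Clec4f, Cd5l and Adgre1), 2 of 11 leukocyte markers (Cd4 and Ptprc) and Stab2 of the endothelial markers were higher, and 2 of 6 hepatocyte markers (Ass1 and Tat) were lower. There 3 of 21 acute-phase and STAT3 genes were higher, the fibrinogen genes Fga, Fgg and Fgb, 2 of 10 fasting-response genes were lower, Tat and Pdk4, and no clock or feeding-response gene passed by edgeR, with an unadjusted p under 0.05 for 1 of 15 and 3 of 9 of them, beside 22.4% of all genes. The summed Kupffer cell markers of HGFAC-KO mice were at 129.1 to 193.2 CPM on chow and 166.4 to 291.9 CPM on HF/HS diet. In controls they were at 136.1 to 290.0 CPM on chow and 167.4 to 340.7 CPM on HF/HS diet. By sign alone 7 of 8 of these markers were higher on HF/HS diet in each genotype. Between genotypes on HF/HS diet no clock, fasting-response or feeding-response gene passed by edgeR. An unadjusted p under 0.05 was found there for 7 of 15, 4 of 10 and 1 of 9 of them, beside 9.64% of all genes. On chow it was found for 1 of 15, 0 of 10 and 1 of 9, beside 5.98% of all genes. The part of time of day, feeding or cell content in the levels of Cish, Ghr and the sex-biased genes was not tested.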

How the data were processed

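Liver RNA of 27 mice was prepared with a stranded mRNA kit and sequenced in pairs of reads. Per the labels and the study's methods, the authors aligned reads to the mm10 genome and deposited raw read counts per gene made with featureCounts 1.6.3. The strand setting and annotation used for counting were not given in the sources used here. Of 27179 rows, 3886 without a gene name (4.13 to 12.1% of the counts of a mouse) were left out, rows of the 89 symbols found on several rows were summed, and 6 empty columns without a name were not used. All mice of a group differed by more than counting noise, with a chi-square per gene of at least 17.69. The labels do not say whether mice shared litters or cages.

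Genes that passed filterByExpr (minimum count 10, minimum total 15) were fitted in R 4.3.3 with the robust quasi-likelihood test of edgeR 4.0.16, with TMM scaling, separately for each comparison and over all 27 mice for the interaction. P-values were Benjamini-Hochberg adjusted over all genes tested, with a threshold of 0.05. SE is the standard error of the log2 fold change. Single genes were also compared by two-sided exact permutation of log2 CPM (prior count 2). Pairs of genes were correlated on log2 CPM centred on group means, with 100000 shuffles within groups. The scripts were tested on simulated data.

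The members and lists were chosen with earlier results of these data known. Besides the 10 genes, those named were Hgfac, the genes of each list past the threshold or with the 3 smallest p-values, and the genes with the highest or lowest r with a member among genes with a median of at least 1 CPM. The mice compared for Saa1 and both exclusions of several mice were chosen after values were seen. Alternatives were DESeq2 1.42.0, limma 3.58.1 voom, other filters and scalings, a replicate block, 1 model for the 27 mice together, and exclusion of single mice. Some genes that this rule selects are not reported here.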

Additional observations from a re-analysis of the deposited data

Results flagged for a closer look

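Socs3 in control chow replicate 3, at 14.4 CPM, lay far from the other 6 controls on chow: its gap to the next mouse was 0.584 of the range of the group. The same mouse had the highest Saa1 of the group, 245.8 CPM, and the part of that in its Socs3 level was not tested. Among the 40 groups of values checked, chance flags about 1 in 20.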

How the results depend on the processing

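No result changed direction with a call. With diet in controls, 2 of the 10 genes passed the threshold, and this count was 1 with limma voom or upper-quartile normalization (Ghr), the fit of all 27 mice (Cish) or without the 3 mice highest in Saa1 (Stat5b, while Cish and Ghr both lost their calls). It was 0 with no filter on low counts or without control HF/HS replicates 2 and 3, and between 0 and 2 with single mice left out. The call of Ghr was lost (adjusted p 0.0512 to 0.0947) with no filter, the replicate block, the fit of all 27 mice and both exclusions of several mice. Exclusions of several mice were chosen after seeing the data. The labels do not say that the replicate number pairs the mice. Same-numbered mice correlated between -0.252 and 0.369, but mice of different numbers were not compared, so this range cannot decide it. With the replicate number as a block 0 of the 10 genes passed in every comparison, and 1, 2, 774, 602 and 0 genes passed in all.

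Among all genes, DESeq2 called 13 in place of 1 between genotypes on chow, 55 in place of 2 between genotypes on HF/HS diet and 1401 in place of 802 with diet in HGFAC-KO mice. The genotype comparison on HF/HS diet gave 1 gene in the fit of all 27 mice and 2 to 11 with single mice left out (11 without KO HF/HS replicate 5, 5 without control HF/HS replicate 7). Leaving out the 3 mice highest in Saa1 removed only control HF/HS replicate 7 from this comparison and was the same fit. The diet comparison in HGFAC-KO mice gave 467 to 950 (467 without KO chow replicate 2). Of the 45 pairs 0 passed, with 1 under upper-quartile normalization or without control HF/HS replicates 2 and 3 (there Stat5a with Stat5b), and 0 to 1 with single mice left out. The causes of these changes were not tested. Counts of 17 to 57 limit Socs1, whose counting error alone had a standard deviation of 0.25 on the log2 scale.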
